A study of Mus musculus with 60 samples.

Results

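The nuclear genes of oxidative phosphorylation were followed through activation of mouse CD8 T cells with and without the adaptor gene Sh2b3. They were chosen by name: every gene whose mouse symbol begins with Nduf, Uqcr, Cox4, Cox5, Cox6, Cox7, Cox8 or Atp5, or is Sdha, Sdhb, Sdhc or Sdhd, leaving out those whose symbol marks a pseudogene. The rule gave 98 of the 55414 genes in the table. Of these, 39 are subunits of complex I by name, 8 are complex I assembly factors (Ndufaf1 to Ndufaf8), 4 belong to complex II, 8 to complex III, 21 to complex IV and 18 to complex V. Ndufa4 and Ndufa4l2 were placed with complex IV, where the Ndufa4 protein is known to sit. The rule left out 9 pseudogene symbols, among them Ndufb1-ps, which held 21670 reads.

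The cells were naive CD8 T cells purified by negative selection from spleens of NOD mice, a strain prone to autoimmune diabetes. Every animal carried the OT-I transgene, whose T cell receptor recognises an ovalbumin peptide. Mice were Sh2b3+/+ (wild type) or Sh2b3-/- (knockout), and SH2B3 is an adaptor protein that restrains cytokine receptor and JAK signalling. Cells were unstimulated (0 h, 11 libraries of each genotype) or stimulated for 2, 6 or 24 h (5 libraries of each genotype at each time) with plate-bound anti-CD3 at 10 µg/mL and soluble anti-CD28 at 5 µg/mL. A further 4 libraries of each genotype came from 24 h cultures with a blocking antibody to IL-2 at 10 µg/mL. Whether each of the 60 libraries is its own animal or culture is not stated in the labels, and p-values therefore cover only the spread between these samples, which may be technical.

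Oxidative phosphorylation takes place in the inner mitochondrial membrane. Complexes I and II pass electrons from NADH and succinate to ubiquinone, complex III passes them to cytochrome c and complex IV to oxygen, and complexes I, III and IV pump protons that drive ATP synthesis by complex V. Most subunits are encoded in the nucleus and imported, and the remainder of complexes I, III, IV and V is encoded by mitochondrial DNA. Naive T cells are quiescent, and cells activated through the T cell receptor are known to enlarge, to remodel metabolism and to build new mitochondria before they divide.

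Total counts ran from 13987029 to 35476519 per library, with a median of 17994613. Levels are CPM, the reads of a gene scaled to a common library total, after scaling by the trimmed mean of M values (TMM), and levels of different genes are compared only as CPM per kb of exon. In these bulk samples fewer cells of a type and less RNA per cell cannot be told apart. Summed CPM of 5 CD8 T cell markers was 3966 to 4903 in wild type at 0 h and 1840 to 2726 at 24 h. Of those 5 genes, 5 were lower at 24 h in each genotype. Summed B cell markers (4 genes) were 4.44 to 16.5 CPM at 0 h and 4.99 to 44.4 CPM at 24 h in wild type, where 2 of the 4 rose. Erythroid markers (5 genes) were 10.3 to 77.3 CPM and 3.32 to 126 CPM in the same groups, and the summed CD4, NK and myeloid lists reached at most 11.4 CPM in any library. The part of these markers in the results was not tested. Sh2b3 itself lay between 65.9 and 95.3 CPM in wild type and between 7.62 and 16.8 CPM in the knockout at 0 h, and no knockout library reached any wild-type library of the same group. By their library numbers the libraries fall into 4 sets that the labels do not explain: set A holds 0, 2 and 6 h, sets B and C hold 0 and 24 h, and set D holds only the anti-IL-2 libraries.

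In resting wild-type cells the most abundant member per length was Cox7a2l, which encodes SCAF1, a factor that joins complexes III and IV in supercomplexes. Its level was 265 ± 26.1 CPM per kb (SD, n = 11). The next were Atp5a1, the alpha subunit of ATP synthase, at 198 ± 11.6 CPM per kb, Cox8a at 191 ± 28.2 and Cox6a1 at 181 ± 25.05, both small subunits of complex IV. These 3 neighbours did not differ by more than their spread. Atp5b, the catalytic beta subunit of ATP synthase, followed at 153 ± 18.7 CPM per kb. Low in the order stood the complex I assembly factors Ndufaf5, Ndufaf6 and Ndufaf7, with 5.30, 4.79 and 4.57 CPM per kb, and Ndufaf2 with 0.895.

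Where a subunit has a second gene for heart, muscle, testis or lung, the T cells used the widely expressed copy. Cox4i2, Cox6a2, Cox7b2, Cox8b and Ndufa4l2 did not pass 0.95 CPM in any library, and Cox8c had no read. Cox7a1, the heart and muscle form, held 2.99 ± 1.65% (SD, n = 11) of the Cox7a1 and Cox7a2 signal per length at 0 h in wild type and 1.32 ± 0.874% (n = 5) at 24 h. Cox6b2, the testis form, held 2.04 ± 0.87% (SD, n = 5) of the Cox6b signal at 6 h and 0.133 ± 0.149% at 24 h. In all, 11 members were too low to enter any test, and 85 to 87 were tested in each comparison, so counts below are of tested members.

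The first question is how these genes move after stimulation in wild-type cells. All members together took 0.631 ± 0.036% of the counts at 0 h (SD, n = 11), 0.554 ± 0.019% at 2 h, 0.658 ± 0.013% at 6 h and 0.927 ± 0.109% at 24 h (n = 5 each). The sequence was therefore low at 2 h, near the resting share at 6 h and high at 24 h. The comparisons with 0 h share the 0 h libraries and were fitted together with library set as a term.

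At 2 h, 46 of 87 tested members fell and 3 rose, where 27.2% of all genes fell and 26.4% rose (edgeR quasi-likelihood test, adjusted p under 0.05). The median member stood at −0.33 log2 units, against −0.05 over all 14431 genes. At 6 h, 27 members were below their 0 h level and 8 above it, with 24.1% and 24.9% of all genes, and the medians were −0.13 and −0.01. At 24 h, 61 members were higher and 5 lower than at 0 h, where 27.8% of all genes were higher and 31.6% lower. The median member then stood at 0.50 log2 units and the median gene at −0.09. Between 2 and 6 h, 23 members rose and 3 fell, with 18.8% and 18.5% of all genes.

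**Figure D1:**
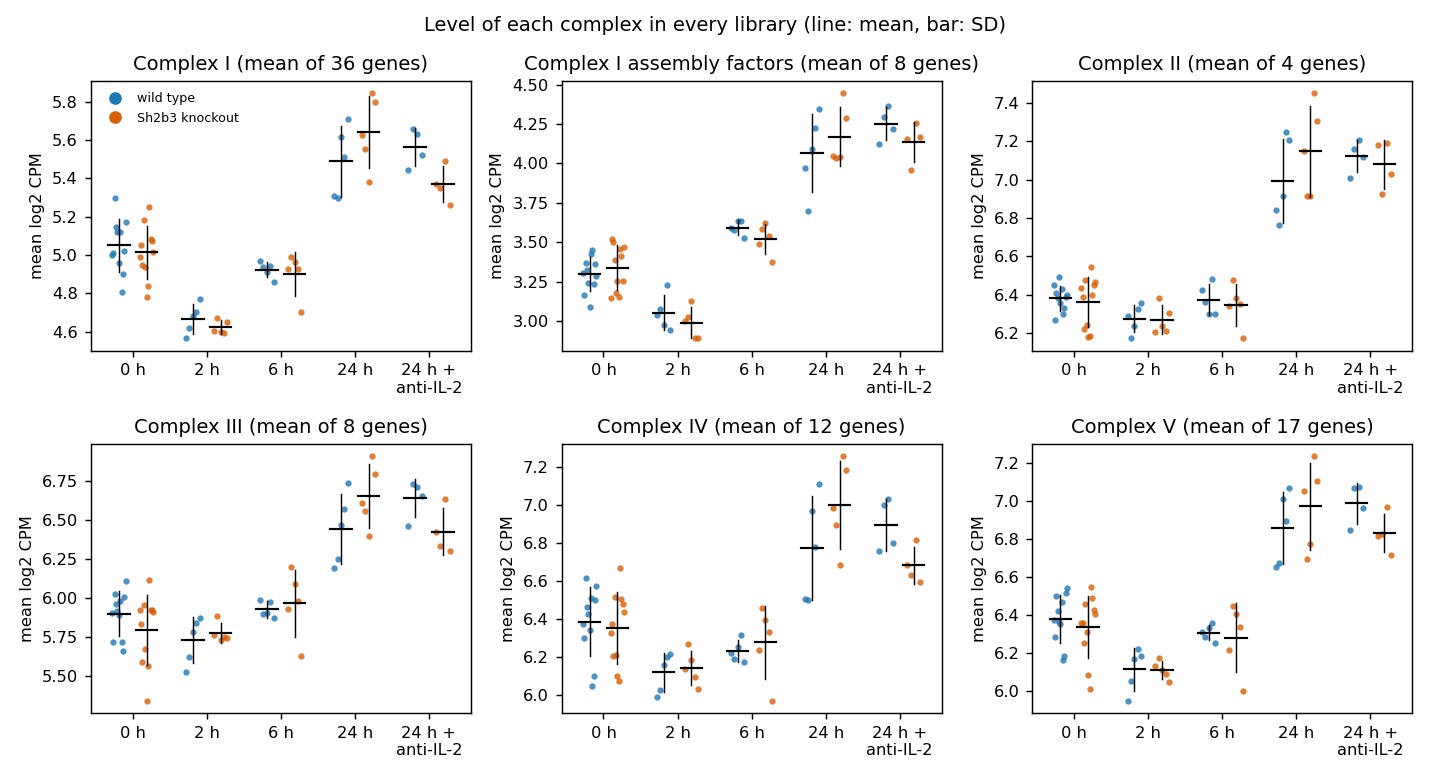
Mean log2 CPM of the members of each complex (vertical axes) in each of the 60 libraries, by time and anti-IL-2 treatment (horizontal axes), with the mean (line) and SD (bar) of each group. Wild type is blue and knockout is orange, and only members with a mean of at least 1 CPM enter. For complex I in wild type the range is 4.81 to 5.30 at rest, 4.57 to 4.77 after 2 h and 5.30 to 5.71 after 24 h.

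The 6 h values depend on the scaling, and the 24 h values on the library set. With library totals in place of TMM, 21 members were higher and 15 lower at 6 h than at 0 h, and the median of all genes moved from −0.01 to 0.17. From 2 to 6 h the same scaling gave 48 higher and 1 lower. It called 50.8% of all genes at 6 h and 38.6% from 2 to 6 h. At 24 h, set B alone gave 72 higher and 2 lower with a median of 0.84, and set C alone gave 44 higher and 2 lower with a median of 0.38. Of all genes, 55.5% were called in either direction in set B alone and 49.2% in set C alone. Members took 1.02% of the counts in the 2 wild-type libraries of set B at 24 h and 0.863% in the 3 of set C.

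Complex I, the NADH dehydrogenase, fell in most of its called subunits at 2 h. Of 36 tested subunits, 20 fell and 1 rose at 2 h (median −0.38), 13 were lower and 3 higher at 6 h (median −0.17), and 22 were higher and 3 lower at 24 h (median 0.44). Ndufv3, a supernumerary subunit of the NADH-oxidising module, had a lowest, median and highest level of 41.4, 52.5 and 59.5 CPM at 0 h and 18.4, 25.3, 27.9, 24.3 and 24.4 CPM after 2 h. The 2 h libraries all lay below the 0 h libraries, and the change was −1.12 ± 0.12 (SE, adjusted p = 1.09e-09). At 6 h it was −0.99 ± 0.12 and at 24 h −0.29 ± 0.11 (SE, adjusted p = 0.0293), a call that was lost with library totals (adjusted p = 0.185), with no filter (0.0607), in set B or C alone (0.315 and 0.174) and without replicate 1 or 2 (0.0719 and 0.127). Ndufa10 and Ndufb3, both supernumerary, fell at 2 h, with differences of −0.95 ± 0.09 and −0.90 ± 0.18 log2 units, and at 24 h neither differed from 0 h by the test (−0.03 ± 0.08 and 0.21 ± 0.17).

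The 7 catalytic core subunits of complex I carry the flavin and iron-sulphur clusters. Of these, 5 fell at 2 h, 2 were lower at 6 h and 6 were higher at 24 h. Ndufv1, which binds NADH, had a lowest, median and highest level of 56.1, 65.6 and 78.1 CPM at 0 h, 46.5, 40.8, 38.5, 39.4 and 52.3 CPM after 2 h and 82.1, 73.3, 89.4, 110.1 and 103 CPM after 24 h. No 2 h library reached the lowest 0 h library, and only 1 of the 24 h libraries lay within the 0 h range. The differences were −0.59 ± 0.11 (SE, adjusted p = 2.95e-05) at 2 h and 0.41 ± 0.11 (SE, adjusted p = 0.00114) at 24 h (0.23, adjusted p = 0.0582, in set C alone). Ndufs1, the largest core subunit, was the exception at 24 h, with a difference of 0.08 ± 0.07 (SE, adjusted p = 0.338).

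The largest rises in complex I were among accessory subunits. Ndufa12, which has a paralogue among the assembly factors in Ndufaf2, had a lowest, median and highest level of 17.1, 19.9 and 25.5 CPM at 0 h, 30.4, 26.7, 29.3, 35.4 and 27.2 CPM after 6 h and 51.3, 38.8, 49.2, 53.5 and 65.1 CPM after 24 h. Every 6 h and 24 h library exceeded every 0 h library, and the differences were 0.58 ± 0.14 (SE, adjusted p = 0.0006502) and 1.21 ± 0.13 (SE, adjusted p = 9.77e-10). Ndufb6, of the membrane arm, was 1.21 ± 0.19 log2 units above 0 h at 24 h. Ndufab1, the mitochondrial acyl carrier protein, which also serves fatty acid and lipoic acid synthesis, was the only subunit of complex I that rose at 2 h, by 0.38 ± 0.12. It reached 0.86 ± 0.12 at 6 h and 1.17 ± 0.12 at 24 h. Ndufa13 (also known as GRIM-19) and Ndufa6 were below 0 h at 24 h, at −0.30 ± 0.11 and −0.28 ± 0.08. Library totals ended both calls (adjusted p = 0.108 and 0.0751), as did set C alone (0.129 and 0.273). The Ndufa13 call was also lost in set B alone (0.434) and without replicate 1 (0.0753), and the Ndufa6 call with no set term (0.115). Ndufb10 and Ndufb11, of the membrane arm, were lower at 6 h, at −0.78 ± 0.12 and −0.73 ± 0.10 and had differences of 0.14 ± 0.12 and −0.11 ± 0.10 at 24 h that did not pass the test.

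The assembly factors of complex I did not move together at 2 h. Of the 8, Ndufaf1 and Ndufaf4 rose, and Ndufaf3, Ndufaf6, Ndufaf7 and Ndufaf8 fell. At 24 h 7 of 8 were higher than at 0 h, with a median of 0.68. Ndufaf2, a chaperone present in late assembly intermediates, had a lowest, median and highest level of 1.58, 2.53 and 3.77 CPM at 0 h. It had 8.37, 7.41, 7.65, 5.53 and 6.604 CPM after 6 h and 12.6, 7.97, 10.9, 20.97 and 18.6 CPM after 24 h. All 6 h and 24 h libraries lay above all 0 h libraries, and the differences of 1.39 ± 0.26 (SE, adjusted p = 3.41e-05) and 2.30 ± 0.25 (SE, adjusted p = 1.11e-09) were the largest of any called member at those times. Set B alone gave 2.94 and set C alone 2.00 at 24 h.

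Ndufaf4, a factor of early assembly, was higher at 6 h than at 24 h in its mean. It had a lowest, median and highest level of 22.003, 26.8 and 37.1 CPM at 0 h, 54.4, 38.4, 38.5, 40.05 and 24.9 CPM after 2 h, 49.9, 41.3, 72.02, 66.6 and 59.4 CPM after 6 h and 52.8, 38.005, 43.5, 61.5 and 64.4 CPM after 24 h. At 2 h 1 library lay within the 0 h range and 4 above it, and all 6 h and 24 h libraries exceeded the highest 0 h library. The differences from 0 h were 0.58 ± 0.15 (SE, adjusted p = 0.00162), 1.12 ± 0.15 (SE, adjusted p = 1.79e-07) and 0.75 ± 0.14 (SE, adjusted p = 3.71e-05), in order of time. Ndufaf1 rose by 0.36 ± 0.14 at 2 h, a call lost without replicate 3 or 4 (adjusted p = 0.109 and 0.053) and with no filter (0.0861), and stood 0.90 ± 0.13 above 0 h at 24 h. Ndufaf8 and Ndufaf6 fell at 2 h, with differences of −0.93 ± 0.22 and −0.78 ± 0.20 and were above 0 h at 24 h by 0.73 ± 0.21 and 0.63 ± 0.19.

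**Figure D2:**
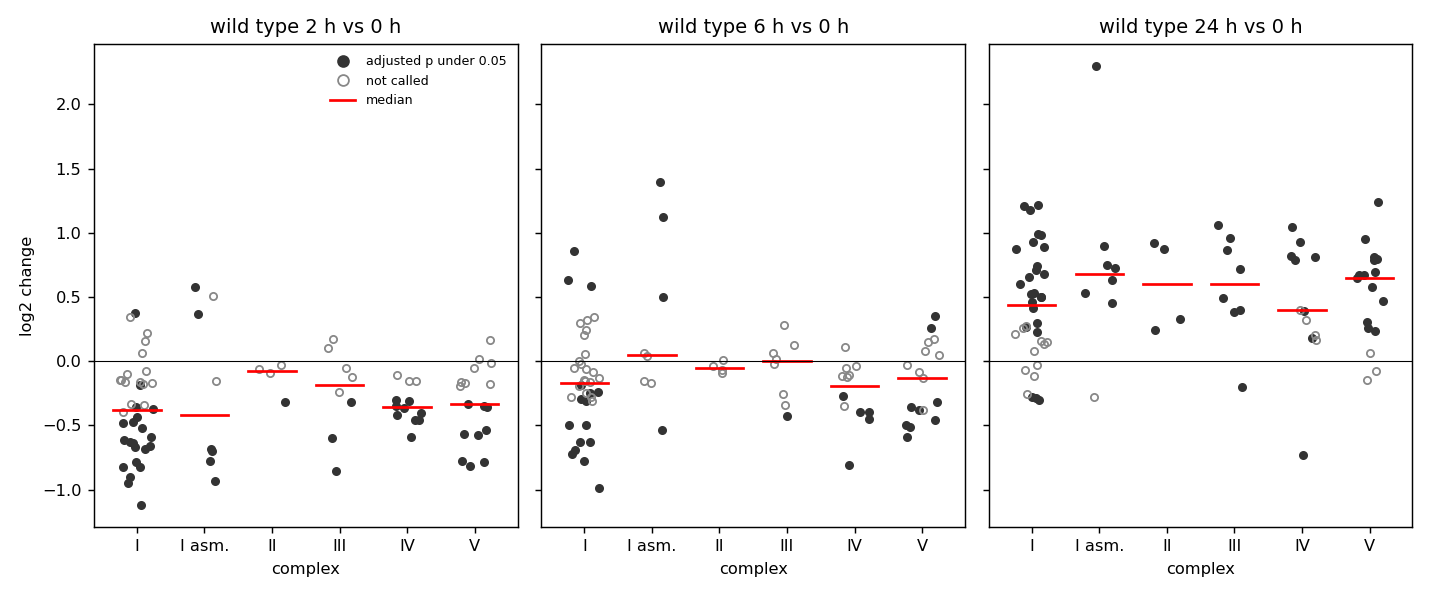
Log2 change from 0 h (vertical axis) of each tested member in wild type at 2, 6 and 24 h (panels), by complex (horizontal axis, I asm. for complex I assembly factors), with filled points for adjusted p under 0.05 and red lines for the median of the points shown. Cox6b2 and Cox7a1, both under 1 CPM on average at 0 h, are left out. Points lie mostly below 0 at 2 h and mostly above 0 at 24 h.

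Complex II, succinate dehydrogenase, also works in the citric acid cycle and has no subunit encoded in mitochondria. At 2 h only Sdhc, a membrane anchor, fell, at −0.32 ± 0.08, none of the 4 was called at 6 h, and all 4 were higher at 24 h. The 6 h differences lay between −0.09 (Sdha) and 0.01 (Sdhc), with unadjusted p of 0.298 to 0.898. Sdhb, the iron-sulphur subunit, had a lowest, median and highest level of 52.3, 66.4 and 74.99 CPM at 0 h, 80.9, 63.4, 65.7, 66.5 and 67.2 CPM after 2 h and 116, 104, 116, 141 and 135 CPM after 24 h. Its 24 h libraries all lay above the 0 h range, with a difference of 0.92 ± 0.08 (SE, adjusted p = 1.40e-11). Sdhd, the other anchor, differed by 0.87 ± 0.11. Sdha, the flavoprotein, had a smaller difference of 0.24 ± 0.08 (SE, adjusted p = 0.009902), with 24 h libraries at 259, 245, 263, 329.9 and 308 CPM and a 0 h range of 196 to 260.3 CPM, which held 2 of them, and in set C alone it was 0.09 (adjusted p = 0.396).

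Complex III, the cytochrome bc1 complex, had 3 members that fell at 2 h, and all were small subunits. Uqcr11, Uqcrq and Uqcr10 fell, with differences of −0.85 ± 0.21, −0.60 ± 0.15 and −0.32 ± 0.11. The Uqcr10 call was lost with no set term (−0.17, adjusted p = 0.203). Uqcrc1, a large core protein, and Uqcrfs1, the Rieske iron-sulphur protein, had differences of 0.10 ± 0.07 and 0.17 ± 0.09 that did not pass the test. At 24 h 7 of 8 subunits were higher. Uqcrq, Uqcr11 and Uqcr10 then differed by 1.06 ± 0.14, 0.96 ± 0.19 and 0.86 ± 0.11, and Uqcrc1 and Uqcrfs1 by 0.49 ± 0.07 and 0.40 ± 0.09. Uqcrfs1 had a lowest, median and highest level of 90.9, 100.5 and 114 CPM at 0 h and 125, 101, 139.9, 178 and 163 CPM after 24 h, so that 1 of the 24 h libraries fell within the resting range and 4 lay above it. Uqcrh, the hinge protein, was the 1 subunit below 0 h, at −0.43 ± 0.09 at 6 h and −0.20 ± 0.08 (SE, adjusted p = 0.0364) at 24 h. The 24 h call was lost in 10 of 12 alternatives, with adjusted p from 0.058 (without replicate 5) to 0.496 (set C alone). It held only without replicate 1 or without replicate 3 (0.0486 and 0.00785). Its 24 h libraries, 126, 112, 147, 104 and 108 CPM, lay within the 0 h range of 114 to 152 CPM in 2 cases and below it in 3.

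Complex IV, cytochrome c oxidase, had 9 of 14 tested members lower at 2 h and none higher, 5 lower and none higher at 6 h, and 7 higher and 1 lower at 24 h. Cox5b, a zinc-binding subunit, and Cox6c and Cox8a fell at 2 h, with differences of −0.59 ± 0.24, −0.46 ± 0.12 and −0.46 ± 0.12. The Cox5b call was lost without replicate 1, 2 or 4 (adjusted p = 0.103, 0.0692 and 0.0751). Cox4i1, whose protein binds adenine nucleotides that tune the enzyme, had a lowest, median and highest level of 175, 232 and 250.2 CPM at 0 h and 183, 184, 169.6, 197 and 177 CPM after 6 h. At 6 h 4 libraries lay within the 0 h range and 1 below it. Cox4i1 differed from 0 h by −0.31 ± 0.08 at 2 h, −0.39 ± 0.08 at 6 h and 0.18 ± 0.08 (SE, adjusted p = 0.0474) at 24 h. That last call was lost with no filter (adjusted p = 0.0673), with no set term (0.271), in set C alone (0.491) and without replicate 3, 4 or 5 (0.141, 0.102 and 0.145). Cox5a, a matrix-side subunit, had a lowest, median and highest level of 41.7, 47.6 and 62.8 CPM at 0 h and 84.1, 66.6, 86.3, 112 and 112 CPM after 24 h, with every 24 h library above every 0 h library and a difference of 0.93 ± 0.11 (SE, adjusted p = 8.18e-09). Cox7a2 and Cox7b were higher at 24 h by 1.04 ± 0.13 and 0.82 ± 0.13. Of the other paired genes, Cox6a1 and Cox6b1 differed by 0.39 ± 0.11 and 0.79 ± 0.12 at 24 h and Ndufa4 by 0.81 ± 0.09. The Cox6a1 call was lost in set C alone (0.19, adjusted p = 0.257).

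Cox7a2l went the other way. Its libraries had a lowest, median and highest level of 323, 394 and 452 CPM at 0 h, 306, 329, 352, 360.4 and 356 CPM after 2 h, 222, 240.0, 201, 217 and 216 CPM after 6 h and 350.5, 255, 360.0, 149 and 151 CPM after 24 h. The 6 h libraries all lay under the lowest 0 h library. At 24 h the 3 set C libraries (replicates 1 to 3) lay above the 2 set B libraries. The difference was −0.81 ± 0.11 (SE, adjusted p = 7.93e-08) at 6 h and −0.73 ± 0.10 (SE, adjusted p = 1.80e-07) at 24 h, with −1.21 in set B alone and −0.39 in set C alone. In the knockout it was −0.58 ± 0.15 (SE, adjusted p = 0.00187) at 6 h and −0.80 ± 0.14 (SE, adjusted p = 1.86e-05) at 24 h, with −0.86 and −0.78 in sets B and C.

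Complex V, ATP synthase, had 9 of 17 tested members lower and none higher at 2 h, 7 lower and 2 higher at 6 h, and 14 higher and none lower at 24 h. Atp5b had a lowest, median and highest level of 509, 642 and 757 CPM at 0 h, 707, 695, 730.0, 781 and 739 CPM after 2 h, 785, 741, 878, 868 and 777 CPM after 6 h and 857, 859, 979, 1288 and 1305 CPM after 24 h. Its 2 h libraries lay within or just above the 0 h range and its 24 h libraries all above it. The difference was 0.02 ± 0.09 (SE, adjusted p = 0.879) at 2 h and 0.78 ± 0.09 (SE, adjusted p = 2.30e-09) at 24 h. Atp5e, the epsilon subunit, and Atp5k, subunit e of the membrane part, fell at 2 h, with differences of −0.79 ± 0.12 and −0.77 ± 0.23, and Atp5j, the coupling factor F6, was higher at 24 h by 0.95 ± 0.08. Atp5l, subunit g, was lower at 6 h, at −0.50 ± 0.12 and differed by −0.08 ± 0.12 at 24 h, which did not pass the test.

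The c ring of ATP synthase is built from subunit c, which 3 genes encode. Atp5g1, Atp5g2 and Atp5g3 give the same mature protein and differ in the peptide that targets it to mitochondria, so these genes show which copy supplies the transcript. The 100 bases upstream of each RefSeq start site are shown because the copies did not move alike. Capitals mark the E-box CACGTG, bound by MYC and related factors, and a palindrome of 10 bases bound by nuclear respiratory factor 1 (NRF1). All are on the minus strand of GRCm38.p6, printed 5′ to 3′ in the direction of the gene.
Atp5g1 (chr11:96075632-96075731): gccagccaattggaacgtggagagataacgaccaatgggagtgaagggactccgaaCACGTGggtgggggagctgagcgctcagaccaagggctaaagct
Atp5g2 (chr15:102671048-102671147): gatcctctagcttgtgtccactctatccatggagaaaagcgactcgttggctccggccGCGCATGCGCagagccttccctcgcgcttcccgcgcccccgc
Atp5g3 (chr2:73911327-73911426): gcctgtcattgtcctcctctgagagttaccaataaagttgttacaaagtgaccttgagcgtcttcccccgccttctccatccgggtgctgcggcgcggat
The first sequence held an E-box at position −44 from the start site and the second an NRF1 palindrome at position −42. For Atp5g1 and Atp5g2 the bases just after the RefSeq start site were not found in the GENCODE M21 transcripts searched. Both positions therefore rest on the RefSeq start site alone. The third sequence held neither motif within these 100 bases, and an E-box lay farther upstream, at −238.

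Atp5g1 was the least abundant copy in resting cells and the one that rose most. It had a lowest, median and highest level of 42.9, 52.8 and 56.4 CPM at 0 h, 53.1, 41.1, 48.4, 47.8 and 45.1 CPM after 2 h, 69.03, 65.1, 78.5, 66.2 and 69.1 CPM after 6 h and 97.4, 96.9, 138, 125 and 159 CPM after 24 h. All 6 h and 24 h libraries lay above the highest 0 h library, and the differences were 0.35 ± 0.10 (SE, adjusted p = 0.00524) and 1.24 ± 0.10 (SE, adjusted p = 8.56e-13). Atp5g2 had a lowest, median and highest level of 93.8, 119 and 139 CPM at 0 h and 62.2, 71.9, 82.96, 74.5 and 81.1 CPM after 2 h. No 2 h library reached the 0 h range, and the difference was −0.82 ± 0.10 (SE, adjusted p = 1.47e-08). At 24 h it was 0.26 ± 0.10 (SE, adjusted p = 0.0194), with libraries that overlapped the 0 h range, and the call was lost with no set term (adjusted p = 0.287), in set C alone (0.514) and without replicate 5 (0.109). Atp5g3 differed by −0.16 ± 0.10 at 2 h, 0.08 ± 0.10 at 6 h and 0.81 ± 0.09 (SE, adjusted p = 3.99e-09) at 24 h.

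Per length, Atp5g2 held 49.3 ± 4.36% of the subunit c transcript in wild type at 0 h, Atp5g3 43.1 ± 4.20% and Atp5g1 7.57 ± 0.417% (SD, n = 11). Length here is the union of all annotated exons, 1675 bp for Atp5g2, 2181 bp for Atp5g3 and 4912 bp for Atp5g1. Without it the mean levels at 0 h were 116, 132 and 52.1 CPM in the same order. Which of Atp5g2 and Atp5g3 leads at rest, and how small the Atp5g1 share is, therefore depend on the length used. At 24 h Atp5g3 held 52.5 ± 2.17%, Atp5g2 35.9 ± 2.56% and Atp5g1 11.7 ± 1.24% (n = 5). In the knockout at 24 h the shares were 56.7 ± 1.48% for Atp5g3, 32.3 ± 2.14% for Atp5g2 and 11.04 ± 0.928% for Atp5g1. With anti-IL-2 Atp5g3 held 53.1 ± 1.54% in wild type and 54.0 ± 2.23% in the knockout (n = 4 each).

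**Figure D3:**
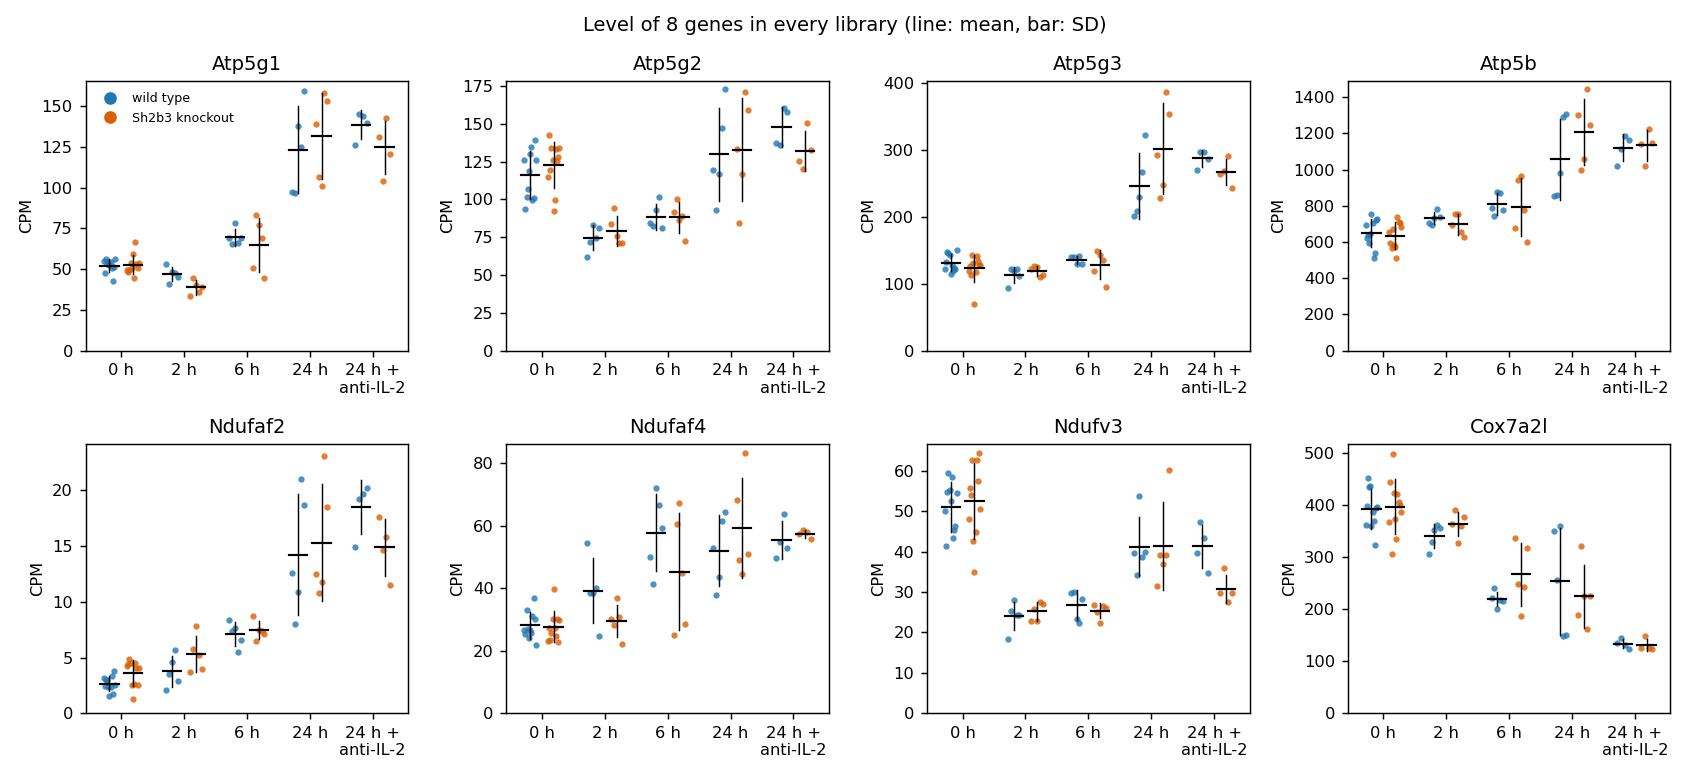
Level in CPM (vertical axes, from 0) of 8 members in each of the 60 libraries, by time and anti-IL-2 treatment (horizontal axes), with the mean (line) and SD (bar) of each group. Wild type is blue and knockout is orange. Atp5g1, Atp5g3, Atp5b and Ndufaf2 are highest at 24 h, Ndufv3 is lowest at 2 and 6 h, and the Cox7a2l means at 6 and 24 h lie below its 0 h mean in both genotypes.

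RefSeq promoter windows, from 250 bases before to 50 after the start site on GRCm38.p6, were found for 74 of the 98 symbols and were searched on both strands. The NRF1 palindrome, spelled by the capitals in the Atp5g2 sequence, was present for 7 of the 74 (9.46%), against 1.07% of all 27025 genes with a window. The YY1 motif AAGATGGCG was present for 8 (10.8%, against 1.64% of genes). The ETS and GABP motif CCGGAAGT was present for 5 (6.76%, against 4.31%) and the E-box for 5 (6.76%, against 8.09%). A match is a description of the letters only. Besides Atp5g2, the palindrome lay upstream of the start site in 4 members, whose 36-base windows follow with the palindrome in capitals.
Ndufaf4 (chr4:24897958-24897993, plus strand): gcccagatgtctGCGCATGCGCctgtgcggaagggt
Atp5k (chr5:108434426-108434461, minus strand): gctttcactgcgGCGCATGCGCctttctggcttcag
Ndufa11 (chr17:56717690-56717725, plus strand): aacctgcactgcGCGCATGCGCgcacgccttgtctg
Cox6a1 (chr5:115349097-115349132, minus strand): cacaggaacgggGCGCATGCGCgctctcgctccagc
These members did not share a course in wild type. At 2 h Ndufaf4 differed from 0 h by 0.58 ± 0.15, Ndufa11, a membrane-arm subunit of complex I, by 0.22 ± 0.12, Cox6a1 by −0.42 ± 0.12, Atp5k by −0.77 ± 0.23 and Atp5g2 by −0.82 ± 0.10. At 24 h the same genes differed by 0.75 ± 0.14, 0.65 ± 0.11, 0.39 ± 0.11, 0.58 ± 0.22 and 0.26 ± 0.10, and all 5 passed the test. In set C alone the calls of Cox6a1 (0.19, adjusted p = 0.257) and Atp5g2 (0.09, adjusted p = 0.514) were lost.

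In the knockout the time course had the same shape in its counts. At 2 h 49 of 87 members fell and none rose, where 24.5% of all genes fell and 23.9% rose, and the medians were −0.39 for members and −0.08 for all genes. At 6 h 28 were lower and 7 higher than at 0 h, with 19.8% and 22.8% of all genes. From 2 to 6 h 24 rose and 2 fell, with 17% and 13.8% of all genes. At 24 h 70 were higher and 2 lower, with 30.1% and 29.8% of all genes, and the medians were 0.75 and −0.05. The 2 that fell by 24 h were Cox7a2l and Ndufaf3, an assembly factor, at −0.49 ± 0.22 (SE, adjusted p = 0.04998). The Ndufaf3 call was lost with library totals (0.0679), no filter (0.0661) or no set term (0.0821), in set B alone (0.689) and without replicate 1, 3 or 4 (adjusted p = 0.135, 0.1498 and 0.139). Library totals gave 11 higher and 13 lower at 6 h, and 47 higher and none lower from 2 to 6 h, where 43.3% and 32.1% of all genes were called. Set B alone gave 67 higher and 1 lower at 24 h with a median of 1.04, and set C alone 56 higher and 4 lower with a median of 0.52. Of all genes, 44.8% were called in either direction in set B alone and 53.8% in set C alone.

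By complex, the knockout medians at 24 h were 0.62 for complex I, 0.83 for its assembly factors, 0.86 for complex II, 0.94 for complex III, 0.70 for complex IV and 0.84 for complex V. The wild-type medians, which come from another fit, were 0.44, 0.68, 0.60, 0.60, 0.36 and 0.64 in the same order. Within wild type they were 0.70, 0.86, 0.89, 1.04, 1.02 and 1.03 in set B alone and 0.23, 0.66, 0.48, 0.39, 0.09 and 0.40 in set C alone. Within the knockout they were 0.98, 0.92, 1.18, 1.33, 1.22 and 1.19 in set B alone and 0.42, 0.72, 0.69, 0.78, 0.44 and 0.66 in set C alone. Ndufb6 had a lowest, median and highest level of 7.37, 12.3 and 16.6 CPM at 0 h and 38.6, 45.2, 38.1, 59.03 and 48.7 CPM after 24 h, with all 24 h libraries above the 0 h range and a difference of 2.06 ± 0.16 (SE, adjusted p = 2.05e-11). Ndufa12 had a lowest, median and highest level of 11.3, 19.8 and 22.1 CPM and 68.7, 62.4, 60.3, 74.3 and 65.3 CPM, again without overlap, and differed by 1.87 ± 0.15 (SE, adjusted p = 5.09e-11). Uqcrq, Uqcr11 and Uqcr10 differed by 1.67 ± 0.17, 1.63 ± 0.26 and 1.40 ± 0.13, and Cox5a by 1.34 ± 0.14.

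Whether the response over time differs by genotype was tested as an interaction over all 52 libraries without anti-IL-2. No member was called at 2, 6 or 24 h by edgeR or by DESeq2, where edgeR called 0%, 0% and 0.14% of all 15762 genes. At an unadjusted p under 0.05 there were 3 members at 2 h, 3 at 6 h and 17 at 24 h, with 6.35% and 5.06% of all genes at 2 and 6 h. All 17 at 24 h were larger rises in the knockout, where 6.74% of all genes were higher at that threshold. Of 87 members, 73 lay above 0 in that interaction, with a median of 0.14. Members are read from the same libraries, here and in every other comparison, so such counts are not counts of independent genes. The smallest adjusted p was 0.153, for Ndufs6, at 0.73 ± 0.22. Ndufb6 followed with 0.60 ± 0.22 (SE, adjusted p = 0.251).

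**Figure D4:**
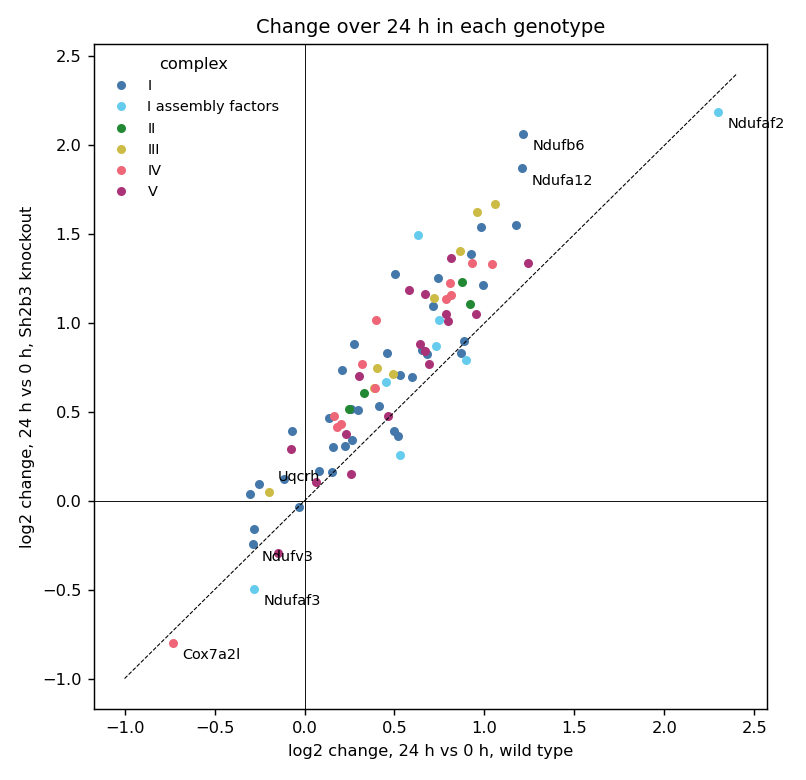
Log2 change from 0 to 24 h in the knockout (vertical axis) against wild type (horizontal axis) for each tested member, coloured by complex, without Cox6b2 and Cox7a1. The dashed line marks equal change. Ndufaf2 lies farthest to the right at 2.30 in wild type, Ndufb6 is at 1.21 (wild type) and 2.06 (knockout), and Cox7a2l lies lowest at −0.73 and −0.80. No interaction of genotype and time was called for any member.

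Direct comparisons of the genotypes ask what loss of Sh2b3 changes at each time. At 0 h 2 of 87 members were lower in the knockout and none higher, where 0.633% of all genes were called. Uqcr10, a small subunit of complex III, had a lowest, median and highest level of 33.7, 42.3 and 46.7 CPM in wild type and a lowest, median and highest level of 25.4, 32.5 and 46.9 CPM in the knockout. The ranges overlapped, and the difference was −0.29 ± 0.06 (SE, adjusted p = 0.0213). Atp5l had a lowest, median and highest level of 46.7, 52.8 and 68.2 CPM and a lowest, median and highest level of 38.4, 47.2 and 50.7 CPM, also overlapping, with a difference of −0.22 ± 0.05 (SE, adjusted p = 0.04699). Both were lower in each of sets A, B and C, with −0.17, −0.51 and −0.32 for Uqcr10 and −0.33, −0.22 and −0.06 for Atp5l, and neither was called within a set. The Atp5l call was lost with DESeq2 size factors (adjusted p = 0.0531), with library totals (0.0554), without the filter on low counts (0.0528) and without knockout replicate 10 (0.0601). Neither was called when the library set was left out of the model (adjusted p = 0.382 for Uqcr10 and 0.241 for Atp5l).

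At 2 h and 6 h no member was called between genotypes by edgeR or DESeq2, with 0.0647% and 0.0306% of all genes called by edgeR. At an unadjusted p under 0.05 there were 11 members at 2 h and 4 at 6 h, with 13.1% and 5.68% of all genes. The smallest p at 2 h belonged to Ndufb4, at −0.50 ± 0.15 (SE, adjusted p = 0.2298), and Atp5g1, at −0.29 ± 0.10 (SE, adjusted p = 0.2595). At 6 h they belonged to Ndufc2, at −0.49 ± 0.13 (SE, adjusted p = 0.677), and Uqcrb, at 0.34 ± 0.13 (SE, adjusted p = 0.805). The complex I mean of knockout replicate 5 at 6 h was 4.70 log2 CPM, below the 4.93 to 4.99 of the other 4.

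At 24 h no member was called by edgeR and 1 was called by DESeq2, with 0.372% and 1.8% of all genes called. Without adjustment 12 members had a p under 0.05, all higher in the knockout, where 6.50% of all genes were higher at that threshold. Of 85 members, 62 lay above 0, and the median was 0.07. Cox5b, the smallest p, had 39.2, 55.6, 69.6, 70.9 and 101 CPM in wild type and 84.1, 91.7, 64.2, 129.7 and 132 CPM in the knockout. The groups overlapped, and the difference was 0.53 ± 0.15 (SE, adjusted p = 0.166). Atp5o, a subunit of the stalk, differed by 0.38 ± 0.11 (SE, adjusted p = 0.189). The median standard error of a member in this comparison was 0.12 log2 units.

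The anti-IL-2 cultures ask whether IL-2 made by the cells themselves bears on these differences. With anti-IL-2 no member was called between genotypes by edgeR, with 0.35% of all genes called. DESeq2 called 6 members, all lower in the knockout, and 1.05% of all genes. Without adjustment 26 members had a p under 0.05, all lower in the knockout, where 4.84% of all genes were lower at that threshold. Of 86 members, 73 lay below 0, and the median was −0.15 against 0.00 for all 13441 genes. The members took 0.954, 1.02, 1.02 and 0.983% of the counts in the wild-type libraries and 0.937, 0.896, 1.002 and 0.908% in the knockout libraries. Knockout replicate 3 lay within the wild-type range and the other 3 below it. All members are read from the same 8 libraries, so these counts are not counts of independent genes.

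The smallest p with anti-IL-2 belonged to Cox7c, a small subunit of complex IV, with 89.9, 128, 126 and 105 CPM in wild type and 86.8, 81.9, 83.4 and 78.2 CPM in the knockout. The groups did not overlap. The difference was −0.43 ± 0.09 (SE, adjusted p = 0.0673), and on leaving out 1 library the adjusted p ran from 0.0295 (without wild-type replicate 1) to 0.299 (without wild-type replicate 2). Atp5l had 58.5, 63.2, 67.9 and 68.99 CPM and 44.4, 45.8, 51.9 and 52.1 CPM, which did not overlap, and differed by −0.40 ± 0.09 (SE, adjusted p = 0.0807). By complex, 36 subunits of complex I had a median of −0.15, complex III −0.23, complex IV −0.22 and complex V −0.16. The 8 assembly factors of complex I had −0.06 and complex II −0.02.

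**Figure D5:**
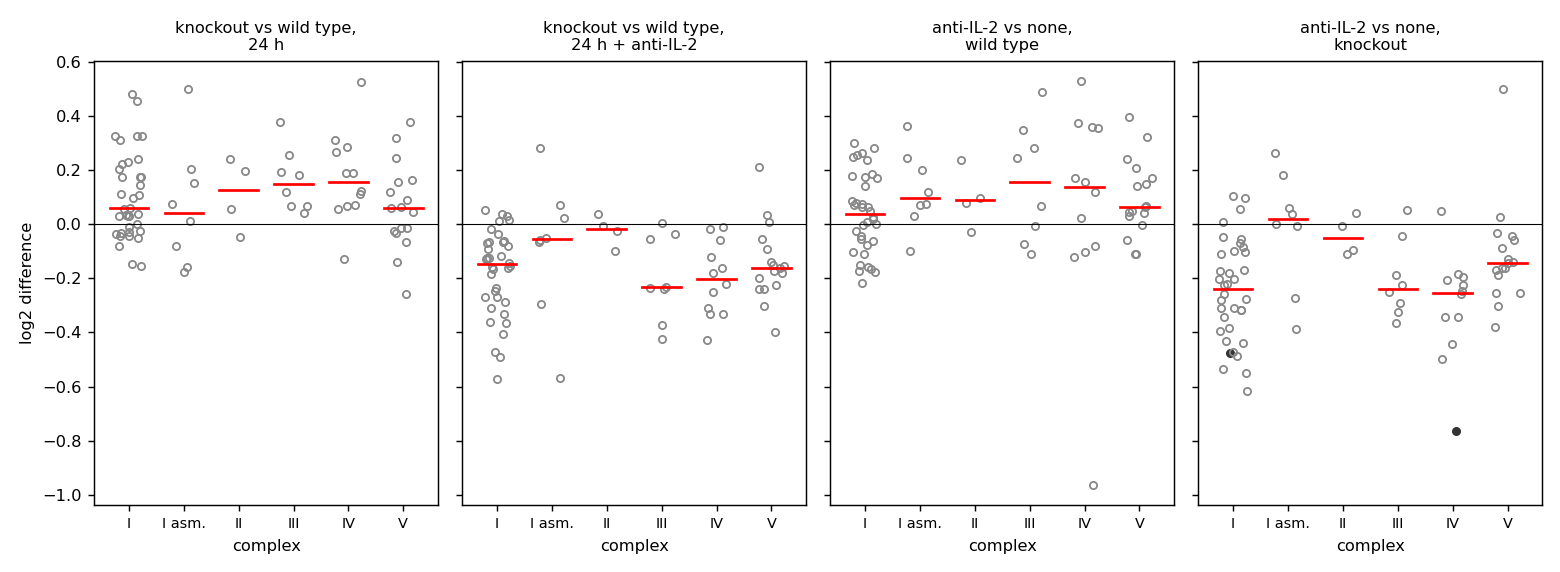
Log2 difference (vertical axis) of each tested member at 24 h by complex (horizontal axis), for knockout against wild type without and with anti-IL-2 and for anti-IL-2 against none in each genotype (panels), with filled points for adjusted p under 0.05 and red lines for medians of the points shown. Cox6b2 and Cox7a1 are left out. The complex medians lie above 0 in the first panel and below 0 in the second, and only Cox7a2l and Ndufa13 in the last panel are filled.

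Within wild type, anti-IL-2 was compared with no antibody at 24 h, but all anti-IL-2 libraries are in set D and all others in sets B and C, so antibody and set cannot be told apart. No member was called by edgeR and 1 by DESeq2, with 4.4% and 10.1% of all genes called. At an unadjusted p under 0.05 there were 6 members, with 20.5% of all genes, and the median was 0.07. Cox7a2l, the smallest p, had 136, 144, 132 and 123 CPM with the antibody, under every set C library and close to the 2 set B libraries without it. The difference was −0.96 ± 0.27 (SE, adjusted p = 0.0644). Between 0 and 5 members were called when 1 library was left out, with 5 called (4 higher and 1 lower) without wild-type 24 h replicate 5 and 1 without replicate 4. In those fits 9.38% and 8.24% of all genes were called.

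Within the knockout 2 of 86 members were lower with anti-IL-2 and none higher, where 5.27% of all genes were called. DESeq2 called 10 members, all lower, and 9.22% of all genes. Cox7a2l had 188, 321, 226, 162 and 225 CPM without and 125, 148, 126 and 123 CPM with the antibody. The groups did not overlap, and the difference was −0.76 ± 0.18 (SE, adjusted p = 0.0246). Ndufa13 had 48.3, 58.4, 46.2, 49.7 and 55.998 CPM and 34.4, 40.8, 39.5 and 31.2 CPM, again without overlap, and differed by −0.48 ± 0.13 (SE, adjusted p = 0.0438). The Cox7a2l call was lost without knockout replicate 3 (adjusted p = 0.0517) and without anti-IL-2 knockout replicate 1, 3 or 4 (0.0893, 0.0747 and 0.0930). The Ndufa13 call was lost with library totals (0.0903) and on leaving out any library other than knockout replicate 4, with adjusted p up to 0.151. Without knockout replicate 3 the count was 5, all lower, where 4.05% of all genes were called. Without anti-IL-2 knockout replicate 1, 3 or 4 it was 0. At an unadjusted p under 0.05, 27 members were lower and none higher, where 10.4% of all genes were lower.

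The interaction of genotype and anti-IL-2, with the antibody libraries of both genotypes in set D, had no called member by edgeR or DESeq2. Of 14778 genes, 0% were called by edgeR. Some 18 members had an unadjusted p under 0.05, all with a lower anti-IL-2 difference in the knockout, where 2.59% of all genes were lower at that threshold. The median member was −0.23 and 78 of 87 lay below 0. Atp5o, with the smallest p, was −0.62 ± 0.16 and Ndufa3, a small complex I subunit, −0.72 ± 0.22, both with an adjusted p of 0.9999.

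Mitochondrial DNA encodes a further 13 subunits, of which 12 were tested. In wild type at 2 h their median was −0.0043 and the smallest adjusted p 0.295, for mt-Co1. At 6 h 4 of 12 fell (median −0.45), where 24.1% of all genes fell. Among the 4 was mt-Co1, a core subunit of complex IV, at −0.60 ± 0.20 (SE, adjusted p = 0.0147). At 24 h 3 of 12 rose (median 0.25), where 27.8% of all genes rose. mt-Nd3, of complex I, rose most, by 1.23 ± 0.22 (SE, adjusted p = 1.36e-05). In the knockout at 24 h 2 rose and 3 fell, where 30.1% of all genes rose and 29.8% fell. There mt-Nd3 was at 1.68 ± 0.19 (SE, adjusted p = 1.93e-08) and mt-Co1 at −0.64 ± 0.12 (SE, adjusted p = 3.51e-05). Between genotypes at 24 h all 12 lay below 0, with a median of −0.49, and none was called by edgeR, the smallest adjusted p being that of mt-Nd6 at −0.64 ± 0.17 (SE, adjusted p = 0.1401). The libraries were made from poly(A) RNA, and most mitochondrial transcripts carry short tails.

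Counts for genes that serve the complexes from outside the rule stand against 26.4% of all genes higher and 27.2% lower at 2 h in wild type, and 27.8% and 31.6% at 24 h. Of 13 citric acid cycle genes, 1 rose and 4 fell at 2 h in wild type and 9 rose and none fell by 24 h (median 0.39). Fh1, fumarate hydratase, and Mdh2, malate dehydrogenase, differed by 1.37 ± 0.10 (SE, adjusted p = 1.82e-14) and 0.98 ± 0.08 (SE, adjusted p = 5.16e-13). Of 9 genes for complex III assembly and cytochrome c, 6 were higher and 1 lower at 24 h, with Uqcc2, an assembly factor, at 1.43 ± 0.17 (SE, adjusted p = 5.14e-09), and Hccs, which attaches haem to cytochrome c, already at 1.01 ± 0.11 (SE, adjusted p = 2.24e-09) at 2 h. In the knockout at 24 h the cytochrome c gene Cycs was at 2.06 ± 0.20 (SE, adjusted p = 2.16e-09).

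Of 24 tested assembly factors of complex IV, 4 rose and 8 fell at 2 h in wild type and 9 were higher and 3 lower at 24 h, with Coa7 at 1.16 ± 0.15 (SE, adjusted p = 2.92e-08) and Lrpprc, which stabilises mitochondrial mRNA, at 0.71 ± 0.09 (SE, adjusted p = 7.57e-09). Cox10 and Cox15, which make the haem of the enzyme, fell at 2 h, with differences of −0.97 ± 0.12 (SE, adjusted p = 1.07e-08) and −0.84 ± 0.12 (SE, adjusted p = 1.72e-07). Of 9 further complex I assembly genes, 1 rose and 3 fell at 2 h and 5 were higher at 24 h, with Ecsit at −1.20 ± 0.11 (SE, adjusted p = 5.32e-11) at 2 h and Tmem70 at 1.17 ± 0.12 (SE, adjusted p = 5.08e-10) at 24 h. Of 4 complex II assembly genes 1 was higher at 24 h, and of 3 for complex V 1 was higher and 1 lower.

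Among 15 tested regulators of mitochondrial biogenesis, 5 rose and 5 fell at 2 h and 7 were higher and 4 lower at 24 h in wild type, where 26.4% of all genes rose and 27.2% fell at 2 h and 27.8% were higher and 31.6% lower at 24 h. Gabpb1, a subunit of the GABP (NRF2) factor, rose by 1.31 ± 0.10 (SE, adjusted p = 1.40e-13) at 2 h, and Myc, which drives growth on activation, by 1.12 ± 0.11 (SE, adjusted p = 4.87e-11). At 6 h Pprc1, a coactivator of the PGC-1 family, was at 0.98 ± 0.10 (SE, adjusted p = 8.26e-10). Gabpb2, the other beta subunit of GABP, was lower at 24 h, at −0.92 ± 0.07 (SE, adjusted p = 2.00e-13). Among all of these lists the smallest adjusted p between genotypes at 24 h was that of mt-Nd6.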

How the data were processed

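Poly(A) RNA of 60 samples of purified CD8 T cells was sequenced. The authors deposited raw read counts per gene, and the submitters' processing notes name FastQC 0.119.9, STAR 2.7.9a, SAMtools, Picard 2.42.2, Subread featureCounts 2.0.1 and the build GRCm39. The strand setting is not given in the sources used here, so antisense and overlapping genes may share reads. The labels name RNA kits from Qiagen or Zymo without assigning them to libraries.

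From the deposited counts, symbols and exon lengths were taken from GENCODE M21 (52081 of 55414 identifiers, 99.6% of counts). The length of a gene is the union of all its annotated exons, which can exceed the length of its main transcript. Counts were filtered with filterByExpr (minimum count 10), scaled by TMM and tested with edgeR 4.0.16 (quasi-likelihood, R 4.3.3, limma 3.58.1), with p-values adjusted by Benjamini-Hochberg across every tested gene, and a threshold of 0.05. Library set was a term in the fits over time and between genotypes at 0 and 24 h. SE is the absolute log2 change over the square root of F. Mean log2 CPM of a complex used a prior count of 2 and members of at least 1 CPM on average. DESeq2 1.42.0 was an alternative. The fits were tested on simulated data. Values are relative to the library total, not per cell.

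Genes named are 10 fixed members, the paired isoforms, in each complex up to 3 called members with the largest rise and 3 with the largest fall per comparison, or the 2 with the smallest p where none was called, and up to 2 genes per other list. Some further members, such as those with a promoter motif, were named after their values were seen. Members and lists were chosen with earlier results of these data known. One of the fixed members is not reported here by name.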

Additional observations from a re-analysis of the deposited data

Results flagged for a closer look

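Among 216 group and measure pairs scanned, 5 held 1 library that stood apart from the others of its group by Dixon's 95% criterion, and chance flags about 1 in 20 groups. Sdhb was 80.9 CPM in wild-type replicate 1 at 2 h, with 63.4 to 67.2 CPM in the others. The mean log2 CPM of complex III was 5.89 in knockout replicate 2 at 2 h, with 5.73 to 5.76 in the others. The mean log2 CPM of complex I was 4.70 in knockout replicate 5 at 6 h, with 4.93 to 4.99 in the others. In anti-IL-2 knockout replicate 2 Sdhb was 101 CPM, with 130.1 to 133 CPM in the others, and Cox7a2l was 148 CPM, with 123 to 126 CPM in the others.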

How the results depend on the processing

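No called value of a named member changed sign under an alternative. The median over members did in some fits, of which these are examples. At 6 h in wild type it was 0.05 with library totals against −0.13, and at 0 h between genotypes 0.03 in set A alone against −0.03. In the interaction of genotype and time, library totals gave −0.03 against 0.01 at 2 h and −0.03 against 0.02 at 6 h. Between genotypes at 6 h the median was 0.02 without knockout replicate 5 against −0.04. From 2 to 6 h, library totals gave 49 called members in wild type and 47 in the knockout, against 26 in each. Of all genes 38.6% and 32.1% were then called, against 37.4% and 30.8%. The median of all genes moved from 0.03 to 0.18 in wild type and from 0.05 to 0.19 in the knockout. At 0 h between genotypes the count of 2 became 1 with DESeq2 size factors, library totals, no filter or without knockout replicate 10, and 0 with no library set term or in set A, B or C alone. Between genotypes at 24 h it was 2 with no filter and 1 with DESeq2 (1.49% and 1.8% of all genes). With anti-IL-2 it was 8 and 6 (0.711% and 1.05% of all genes), with 0 to 1 on leaving out a library. For anti-IL-2 in wild type it was 1 with DESeq2 (10.1% of all genes) and 0 to 5 on leaving out a library. In the knockout it was 1 with library totals, 5 with no filter, 10 with DESeq2 and 0 to 5 on leaving out a library. Library totals, no filter and DESeq2 called 5.74%, 3.48% and 9.22% of all genes there. The interaction at 24 h gave 2 (both higher) with no filter and 1, which was lower, in set C alone (0.855% and 1.07% of all genes). The cause of these shifts was not tested. Leaving out 3 knockout libraries that stood apart in an earlier analysis, chosen after seeing the data, gave 44, 30, 18 and 71 calls at 2 h, at 6 h, from 2 to 6 h and at 24 h. In the same order 0, 6, 18 and 70 of these calls were higher. Of all genes, 44.5%, 37.9%, 27.9% and 60.8% were called in those fits.

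Replicate numbers were given in accession order and pair nothing, and the labels state no pairing. Library numbers 10 apart in set A were tried as a block. Of 30 such pairs 19 correlated above 0.1 (median 0.16). In 17 the earlier library correlated best with its partner among the libraries of the later time. These included all 5 knockout pairs of 2 and 6 h (0.193 to 0.731). The best match of the later library was not examined, and the pattern is a hint from the data and not the design. With the replicate block in set A, 55, 42 and 37 members were called in wild type (2 h, 6 h, 2 to 6 h) and 58, 39 and 30 in the knockout. The shares of all genes called were 62%, 56.3% and 45.5% in wild type and 59.4%, 53.7% and 42.2% in the knockout. Levels near 1 CPM, as for Cox6b2 and Cox7a1, rest on few reads.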
